A study of Mus musculus with 9 samples.

Results

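The acute phase proteins described here are 10 secreted proteins of the liver's response to inflammation: the serum amyloid A proteins Saa1, Saa2, Saa3 and Saa4, the orosomucoids Orm1 and Orm2, haptoglobin (Hp), haemopexin (Hpx), lipocalin 2 (Lcn2) and serum amyloid P (Apcs). They were chosen by name, and each had 1 probe set annotated to that gene alone, so all 10 of the 19938 genes with such a probe set were measured and no filter on low values removed any. Expression was measured in 5 hepatocellular carcinomas (HCC) and 4 control livers, with 1 Affymetrix Mouse Gene 1.0 ST array per sample. The HCC came from bitransgenic AFP-Cre/Rosa26-lsl-NICD mice, in which the alpha-fetoprotein promoter drives Cre and Cre switches on the Notch1 intracellular domain (NICD), the active part of the Notch1 receptor. The control livers were labelled healthy and came from monotransgenic Rosa26-lsl-NICD mice, which carry the silent NICD allele without Cre. Both groups shared that allele, a hybrid 129 x C57BL/6 background and an age of 6 to 12 months. The sex of the mice, their litters and any pooling are not given in the sources used here. No tumour-free liver of bitransgenic mice was analysed here, so the transgene and the tumour cannot be told apart.

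Acute phase proteins are plasma proteins whose production by hepatocytes shifts within hours of injury or infection. Interleukin 6 and related cytokines act through the receptor subunit gp130 and the transcription factor STAT3, while interleukin 1 and tumour necrosis factor act through NF-kB, and C/EBP factors bind many of the target promoters. In mouse, Saa1, Saa2, the orosomucoids, Hp, Hpx, Lcn2 and Apcs are induced, Saa3 is also made outside hepatocytes by macrophages and fat, and Saa4 is the constitutive member of its family.

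The upstream sequences of 5 of these genes are given first, chosen by their order of arrays. Saa1, Saa2 and Saa3 shared their highest array in each group, array 2, and their lowest HCC array, array 4. Saa4 was highest on HCC array 5 and lowest on HCC array 1. Lcn2 was also highest on array 2 of each group but lowest on HCC array 5. Each stretch is RefSeq sequence of the GRCm38.p6 build, running 5′ to 3′ along the gene's strand from 250 bases before to 50 bases after the annotated start. Capitals mark matches on either strand to a C/EBP-type motif, TTNNGNAA. Saa1 lies at chr7:46742931-46743230 (minus strand), Saa2 at chr7:46751583-46751882 (plus strand), Saa3 at chr7:46715627-46715926 (minus strand), Saa4 at chr7:46732554-46732853 (minus strand) and Lcn2 at chr2:32387690-32387989 (minus strand).
Saa1: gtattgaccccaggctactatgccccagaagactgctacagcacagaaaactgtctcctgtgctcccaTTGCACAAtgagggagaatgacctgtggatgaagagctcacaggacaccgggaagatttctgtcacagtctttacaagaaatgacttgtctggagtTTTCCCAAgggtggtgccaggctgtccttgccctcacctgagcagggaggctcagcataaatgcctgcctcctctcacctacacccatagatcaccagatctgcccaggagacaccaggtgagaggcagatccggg
Saa2: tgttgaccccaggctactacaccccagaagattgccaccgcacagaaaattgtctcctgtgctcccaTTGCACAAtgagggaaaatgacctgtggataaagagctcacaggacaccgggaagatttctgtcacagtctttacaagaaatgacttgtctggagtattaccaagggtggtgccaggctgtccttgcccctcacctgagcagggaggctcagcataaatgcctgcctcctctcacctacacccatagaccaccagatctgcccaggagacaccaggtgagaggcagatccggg
Saa3: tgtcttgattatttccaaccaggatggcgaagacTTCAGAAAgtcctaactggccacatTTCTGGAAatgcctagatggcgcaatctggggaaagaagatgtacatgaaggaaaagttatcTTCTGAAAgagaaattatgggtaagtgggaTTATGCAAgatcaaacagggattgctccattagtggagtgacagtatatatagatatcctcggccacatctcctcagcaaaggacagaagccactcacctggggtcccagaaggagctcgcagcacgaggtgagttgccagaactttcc
Saa4: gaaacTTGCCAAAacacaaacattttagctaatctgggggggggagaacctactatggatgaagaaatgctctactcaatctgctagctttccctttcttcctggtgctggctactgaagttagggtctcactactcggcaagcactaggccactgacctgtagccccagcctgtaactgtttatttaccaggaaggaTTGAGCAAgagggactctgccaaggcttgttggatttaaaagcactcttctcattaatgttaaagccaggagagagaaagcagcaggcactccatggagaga
Lcn2: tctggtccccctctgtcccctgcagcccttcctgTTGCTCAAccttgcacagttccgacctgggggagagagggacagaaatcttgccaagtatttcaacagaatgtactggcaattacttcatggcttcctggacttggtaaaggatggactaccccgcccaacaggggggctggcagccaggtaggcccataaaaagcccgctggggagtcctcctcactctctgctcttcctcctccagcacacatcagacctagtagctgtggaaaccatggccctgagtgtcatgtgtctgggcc

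The first 2 of these sequences were near copies: the Saa1 and Saa2 stretches matched at 287 of 301 aligned positions (95.3%), against 46.5% between Saa1 and Saa3 and 42.8% between Saa1 and Saa4. The C/EBP-type motif occurred in the stretches of 7 of the 8 genes found in the promoter table, in a background where 40.7% of all 32851 promoters of that length held it. Saa3 held 4 matches, Saa1, Saa4, Orm2 and Hpx 2 each, Saa2 and Lcn2 1 each and Apcs 0. An NF-kB-type motif (GGG, any 2 bases, then TTTCC) was in none of the 8 (1.63% of all promoters). A STAT-type motif, TTCNNNGAA, was in 1 of the 8 (8.30% of all promoters), as was the interleukin 6 response element CTGGGAA (11.1% of all promoters). Apcs was that gene for both, and no match to one of these motifs overlapped a match to another. In the RefSeq gene order, Saa3, Saa4, Saa1 and Saa2 are consecutive protein-coding genes on chromosome 7, and Orm1, Orm3 and Orm2 are consecutive on chromosome 4. Probe sets of such neighbouring copies can share signal, so the values of Saa1 and Saa2, and of the Orm genes, are uncertain as values of single genes.

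The arrays did not stand alike. Array medians lay between 91.5 and 101 linear units. The hepatocyte markers, 9 measured of 10, summed to 49789, 53628, 53600, 53722 and 71156 linear units in HCC arrays 1 to 5, against 69679 to 75393 in the controls. HCC array 5 therefore lay within the control range. In bulk tissue, fewer cells of a type and less RNA per cell cannot be told apart. All 9 of these markers had a negative log2 change, and 4 had an unadjusted p below 0.05 in limma, beside 20.4% of all genes. For 3 of them, Cps1, Tat and Pck1, every HCC array, array 5 included, lay below every control (9.48% of all genes had groups without overlap). Only Pck1, a gluconeogenic enzyme, passed (10.72 ± 0.53 in HCC and 12.07 ± 0.11 in control liver, adjusted p = 0.0460 in limma). Its call did not hold in 11 of the 19 alternatives (adjusted p up to 0.189). Albumin (Alb) measured 13.30 ± 0.23 in HCC and 13.55 ± 0.082 in control liver in log2 units (SD, n = 5 HCC and n = 4 control arrays, here and below). Xist is transcribed from the inactive X chromosome, so it is high in females. It was high on HCC arrays 1 and 2 and control arrays 1, 2 and 3 (10.68 to 11.76). It was low on HCC arrays 3, 4 and 5 and control array 4 (4.83 to 5.10). By this transcript alone, the sexes were split unevenly between the groups, although the labels do not give sex. Notch1 spanned 7.19 to 7.59 on the HCC arrays and 6.92 to 7.20 on the control arrays (adjusted p = 0.160). Which Notch1 exons the probe set covers is not known here, so these values test the labels only loosely.

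None of the 10 acute phase genes passed an adjusted p of 0.05 in limma when HCC was compared with control liver, while 1.02% of all genes did (0.858% higher and 0.16% lower). At an unadjusted p below 0.05 there was 1 member, Hp, against 20.4% of all genes. No member had groups that did not overlap, against 9.48% of all genes. The log2 change was positive for Hp, Hpx and Lcn2 and negative for the other 7, and 57.5% of all genes had a negative one. The median change of the 10 was -0.38, beside -0.033 over all genes. The 95% interval held 0 for 9 of the 10, but most intervals were wide, so these arrays do not show that the genes are equal in HCC and control liver.

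**Figure D1:**
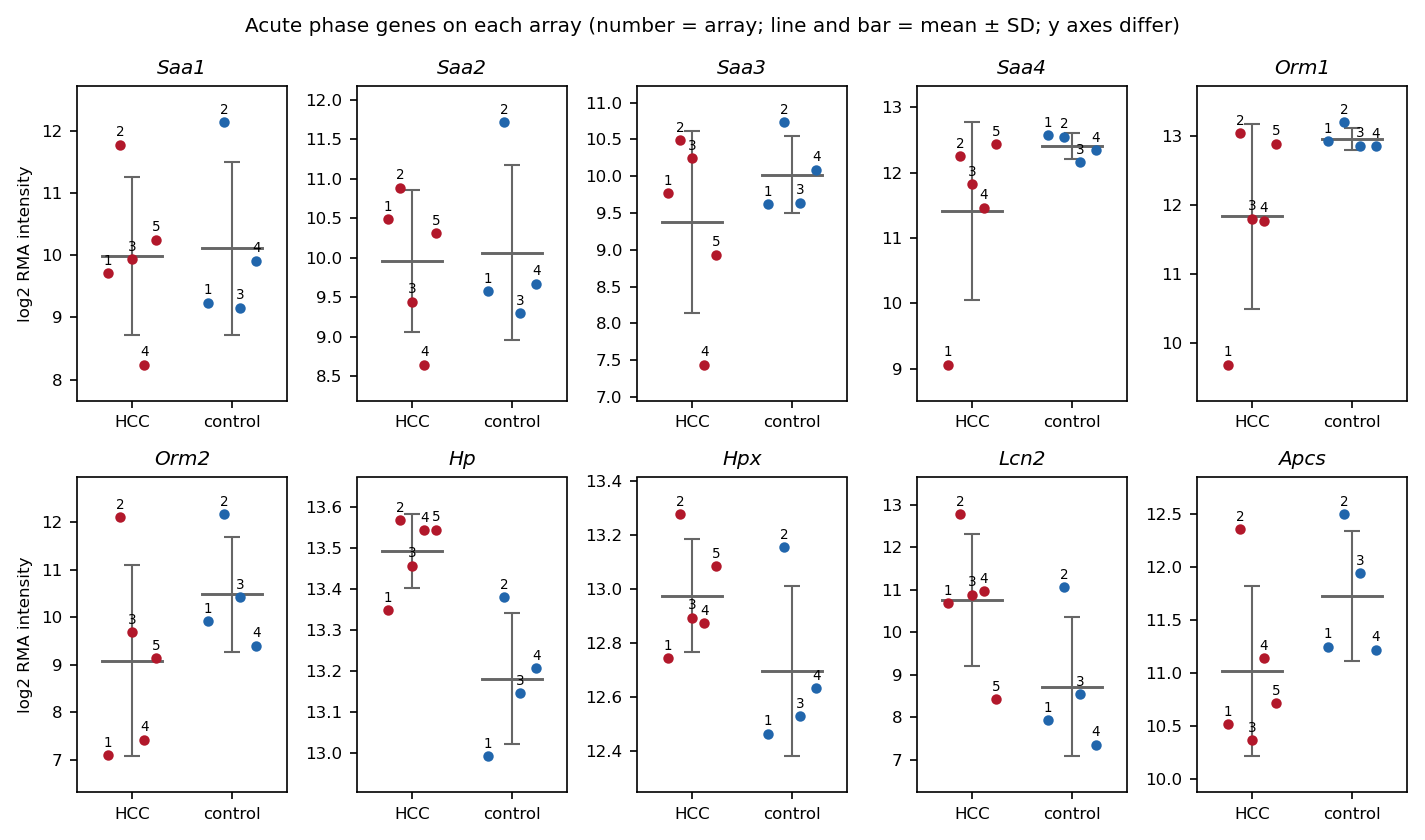
Log2 RMA intensity of each acute phase gene on the 5 HCC arrays (red, left) and the 4 control arrays (blue, right), each point numbered by its array, with mean and SD; the y axes differ between panels. Array 2 of each group was the highest of its group in 9 of the 10 panels, all but Saa4.

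The serum amyloid A proteins are apolipoproteins of HDL, and Saa1 and Saa2 are the main forms that the inflamed mouse liver secretes. Saa1 measured 9.71, 11.77, 9.94, 8.24 and 10.25 on HCC arrays 1 to 5, against 9.23, 12.13, 9.15 and 9.91 on control arrays 1 to 4 (log2 units). Array 2 stood highest in both groups, HCC array 4 stood lowest of all 9, and the groups overlapped across most of their ranges. The log2 change of Saa1 was -0.13 (95% interval -1.87 to 1.62, limma adjusted p = 0.943), an interval that runs in fold terms from 0.274 to 3.07 times control liver. Saa2 measured 10.49, 10.89, 9.44, 8.65 and 10.31 on the HCC arrays, against 9.58, 11.71, 9.30 and 9.67 on the control arrays. Its order was like that of Saa1, with array 2 on top in each group and HCC array 4 at the bottom, and its log2 change was -0.11 (interval -1.43 to 1.21, adjusted p = 0.933). Without control array 2 both changes turned positive, at 0.55 for Saa1 and 0.44 for Saa2, as they did without HCC array 4 (0.31 and 0.22).

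Saa3, the family member of macrophages and other extrahepatic cells, had the same highest array in each group and the same lowest HCC array. It measured 9.77, 10.49, 10.24, 7.44 and 8.93 on the HCC arrays, against 9.62, 10.73, 9.64 and 10.09 on the control arrays. HCC arrays 4 and 5 lay below every control array and HCC arrays 1 to 3 within the control range. For Saa3 the log2 change was -0.64 (SE 0.58, adjusted p = 0.556), and without HCC array 4 it was -0.16. Saa4, the constitutive form, measured 9.06, 12.25, 11.83, 11.47 and 12.43 on the HCC arrays, against 12.57, 12.55, 12.16 and 12.35 on the control arrays. The controls were close together (SD 0.19) and the HCC arrays were not (SD 1.36): HCC array 1 stood far below the rest, HCC arrays 3 and 4 below the controls, and HCC arrays 2 and 5 within the control range. Saa4 had a log2 change of -1.0004 (interval -2.37 to 0.37, adjusted p = 0.378), and without HCC array 1 it was -0.41 (adjusted p = 0.358).

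The orosomucoids, or alpha-1-acid glycoproteins, are plasma lipocalins that bind drugs and other small molecules. Orm1 measured 9.69, 13.04, 11.80, 11.77 and 12.89 on the HCC arrays, against 12.92, 13.20, 12.86 and 12.85 on the control arrays. As with Saa4, the controls were tight (SD 0.16 against 1.34 in HCC), HCC array 1 was lowest, and HCC arrays 2 and 5 were at control level. After each gene's group means were taken off, Saa4 and Orm1 had a Pearson correlation of 0.97 over the 9 arrays, the highest of the 45 member pairs, although the genes lie on different chromosomes. Saa1 and Saa2 followed at 0.92, and Saa4 with Saa2, Saa3 and Lcn2 lay near 0 (-0.0039, -0.0086 and -0.011). These coefficients are descriptions that share the same few deviating arrays. Orm1 had a log2 change of -1.12 (interval -2.47 to 0.23, adjusted p = 0.321), and without HCC array 1 it was -0.58. Orm2 measured 7.11, 12.10, 9.68, 7.42 and 9.13 on the HCC arrays, against 9.92, 12.17, 10.43 and 9.40 on the control arrays. HCC arrays 1, 4 and 5 lay below every control array, and HCC array 2 was next to control array 2 at the top. For Orm2 the log2 change was -1.39 (SE 1.00, adjusted p = 0.454). It was -2.15 without HCC array 2, -0.90 without HCC array 1 and -0.83 without control array 2.

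Haptoglobin binds free haemoglobin and haemopexin binds free haem, and both deliver their load to scavenger receptors. Hp measured 13.35, 13.57, 13.46, 13.54 and 13.54 on the HCC arrays, against 12.99, 13.38, 13.15 and 13.21 on the control arrays. HCC arrays 2 to 5 lay above every control array, and HCC array 1 lay just under control array 2. Hp had the narrowest interval of the 10 genes: a log2 change of 0.31 (interval 0.11 to 0.51), which is 1.24-fold, with an unadjusted p of 0.00680 and an adjusted p of 0.117 in limma. Over the alternatives run, its change stayed between 0.25 and 0.38 and its adjusted p between 0.0835 and 0.247. Hpx measured 12.74, 13.28, 12.89, 12.87 and 13.09 on the HCC arrays, against 12.46, 13.16, 12.53 and 12.63 on the control arrays. Every HCC array lay above control arrays 1, 3 and 4, and only HCC array 2 lay above control array 2. Hpx had a log2 change of 0.28 (interval -0.081 to 0.64, unadjusted p = 0.113 in limma). Hp, and less so Hpx, lay close to the level of transcripts such as Alb (13.55 in control liver), Trf (13.48) and Ttr (13.42). Whether signal is compressed at such levels, which would narrow both spread and change, was not tested.

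Lipocalin 2 captures bacterial siderophores and so withholds iron. It is stored in neutrophil granules and is also induced in hepatocytes and in many epithelial tumours. Lcn2 measured 10.68, 12.79, 10.88, 10.97 and 8.42 on the HCC arrays, against 7.92, 11.06, 8.54 and 7.35 on the control arrays. HCC arrays 1 to 4 stood above control arrays 1, 3 and 4 by a wide margin, HCC array 5 lay among those 3 controls, and control array 2 lay among the tumours. The log2 change of Lcn2 was 2.03 (4.09-fold, interval -0.064 to 4.13, unadjusted p = 0.0560, adjusted p = 0.258 in limma), the largest positive one of the 10. It was 2.61 without HCC array 5 (adjusted p = 0.100) and 2.81 without control array 2 (adjusted p = 0.197).

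The markers of neutrophils were high on some of the same arrays. All 12 were measured and had a positive change, none passed, and their median change was 1.04. Their summed intensity was 2054, 15500, 866, 9469 and 733 on HCC arrays 1 to 5, against 775, 1804, 1103 and 1014 on the control arrays. S100a8, a calcium-binding protein of neutrophil cytoplasm, measured 8.36, 11.87, 6.26, 11.28 and 6.09 on the HCC arrays, against 5.71, 8.05, 7.05 and 6.77 on the control arrays. Its partner S100a9 measured 9.99, 12.54, 7.99, 12.10 and 7.66 in HCC, against 7.13, 9.75, 8.56 and 8.36. The granule collagenase Mmp8 measured 5.03, 8.19, 4.73, 7.45 and 4.55, against 4.54, 4.67, 4.68 and 4.67. The summed neutrophil markers, S100a8 and S100a9 were above every control on HCC arrays 1, 2 and 4, where Lcn2 was 10.68, 12.79 and 10.97. HCC array 1 was mixed across the 12 markers. There S100a8, S100a9, Camp, Cxcr2 and Mmp8 were above every control, while Ltf, Ngp, Mpo, Elane, Retnlg, Csf3r and Ly6g were not. On HCC arrays 3 and 5 the sums were 866 and 733, not above the controls, and Lcn2 was 10.88 and 8.42. The part of neutrophils in the Lcn2 values was not tested.

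Serum amyloid P is a pentraxin that binds amyloid fibrils and, unlike in humans, is a major acute phase reactant of the mouse. Apcs measured 10.52, 12.36, 10.37, 11.14 and 10.72 on the HCC arrays, against 11.25, 12.50, 11.94 and 11.22 on the control arrays. HCC arrays 1, 3, 4 and 5 lay below every control array, and HCC array 2 lay just under control array 2. The log2 change of Apcs was -0.71 (interval -1.67 to 0.26, adjusted p = 0.376), and it was -1.04 without HCC array 2 (adjusted p = 0.130) and -0.45 without control array 2.

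**Figure D2:**
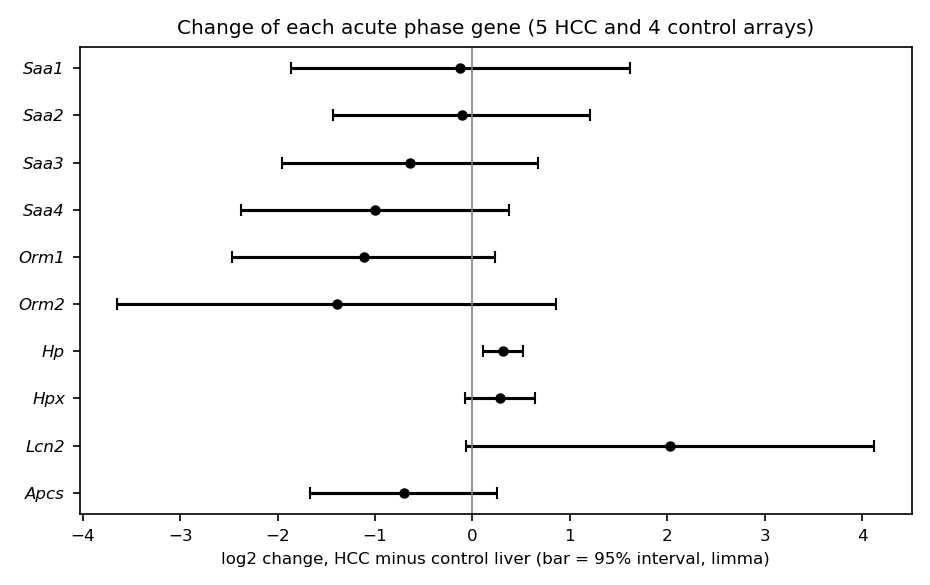
Log2 change of each acute phase gene, HCC minus control liver, with its 95% interval from limma (5 HCC and 4 control arrays). The interval of Hp is the only one that leaves out 0, and Lcn2 and Orm2 have the widest intervals.

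Array 2 of each group was the highest of its group for Saa1, Saa2, Saa3, Orm1, Orm2, Hp, Hpx, Lcn2 and Apcs, that is for 9 of the 10 genes. The arrays at the low end differed by gene. HCC array 1 was the lowest HCC array for Saa4, Orm1, Orm2, Hp and Hpx, HCC array 4 for Saa1, Saa2 and Saa3, HCC array 3 for Apcs and HCC array 5 for Lcn2. With both arrays numbered 2 left out, an alternative chosen after seeing the data, no member passed and 5 members had an unadjusted p below 0.05, beside 15.8% of all genes in the same fit. This alternative leaves out the arrays on which 9 of the 10 genes stood highest in their group. The log2 changes of the 5 were 2.30 for Lcn2, 0.36 for Hp, 0.36 for Hpx, -0.78 for Apcs and -1.58 for Orm2 (limma adjusted p 0.200 to 0.314). Macrophage and Kupffer cell markers were also highest on these arrays. Their summed intensity over 11 genes was 16606 on HCC array 2 and 4144 to 5038 on the other HCC arrays, against 9869 on control array 2 and 4213 to 8055 on the other controls. Of these 11 none passed, 8 had a negative change, and the median was -0.44. The scavenger receptor Marco had the smallest adjusted p (6.53 ± 0.25 in HCC and 6.98 ± 0.18 in control liver, adjusted p = 0.136). The part of these cells in the level of any acute phase gene was not tested.

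**Figure D3:**
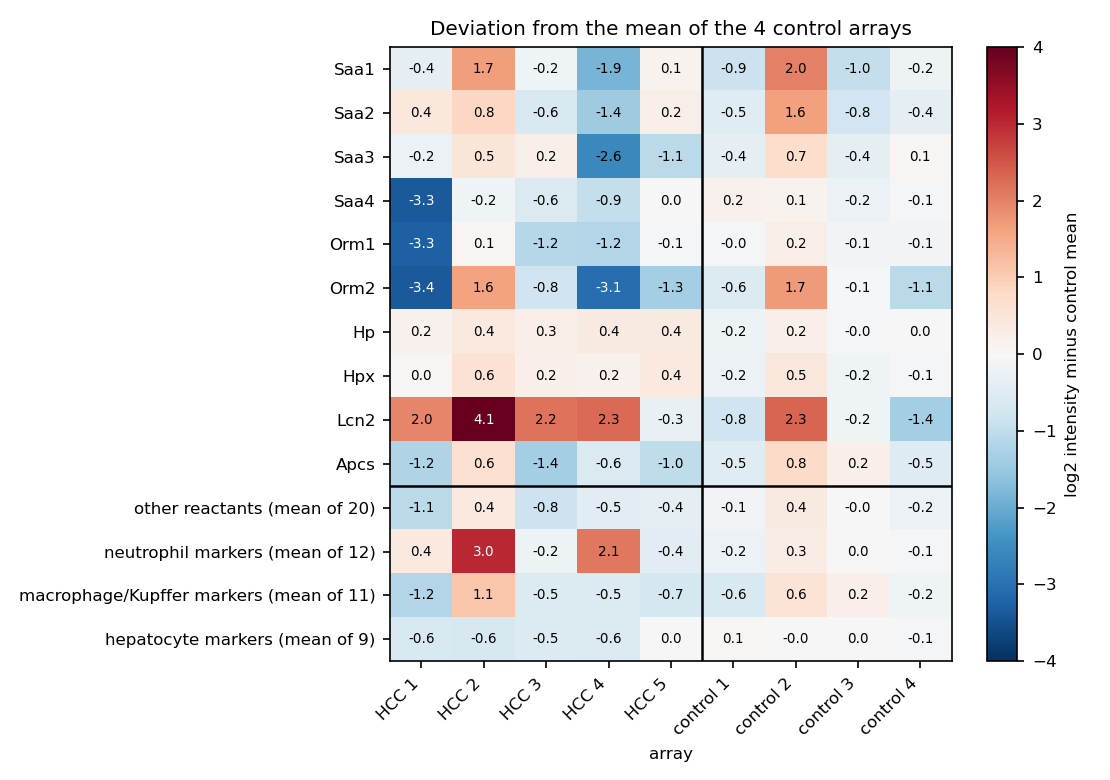
Log2 intensity minus the mean of the 4 control arrays, for each acute phase gene and for the mean of 4 gene lists, on each HCC array (left) and control array (right). Lcn2 is high on HCC arrays 1 to 4 and control array 2, the neutrophil markers are highest on HCC arrays 2 and 4, and Saa4, Orm1 and Orm2 are lowest on HCC array 1.

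Of 20 other positive acute phase reactants measured, none passed, 6 had an unadjusted p below 0.05 (20.4% of all genes did), 17 had a negative log2 change, and the median was -0.32. Hamp, which encodes the iron hormone hepcidin, had the smallest adjusted p. It measured 9.08, 9.47, 10.97, 10.68 and 12.81 on the HCC arrays, against 13.09, 12.48, 12.95 and 12.94 on the control arrays. HCC arrays 1 to 4 lay below every control and HCC array 5 among them. The log2 change of Hamp was -2.26 (SE 0.66, limma adjusted p = 0.119). Without HCC array 5 it passed (-2.81, limma adjusted p = 0.0110), in a fit where 5.95% of all genes did, against 1.02% with all arrays. Orm3, the neighbour of Orm1 and Orm2, measured 4.62, 8.22, 6.06, 6.06 and 8.35 in HCC, against 8.80, 10.25, 9.01 and 8.22 (log2 change -2.41, adjusted p = 0.144), and Lrg1 measured 7.55, 10.95, 8.45, 8.75 and 9.19, against 8.97, 10.83, 9.77 and 9.59. Both were picked after their values were seen, as examples with array 2 on top among the controls. Crp, also picked later and not a major reactant in the mouse, spanned 11.76 to 11.93 in HCC and 11.85 to 12.04 in control liver.

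The negative acute phase proteins, whose production falls in inflammation, did not pass either. Of 12 measured, 10 had a negative change and 2 a positive one, with a median of -0.14. Igfals, the acid-labile subunit that carries insulin-like growth factors in plasma, measured 8.01, 8.63, 8.26, 7.91 and 9.54 in HCC, against 9.62, 10.24, 10.33 and 10.04 in control liver. Its groups did not overlap, and its log2 change was -1.59 (SE 0.32, adjusted p = 0.0558). It passed in limma in 5 of the alternatives, among them without HCC array 5 (adjusted p = 0.00388), where 5.95% of all genes passed.

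**Figure D4:**
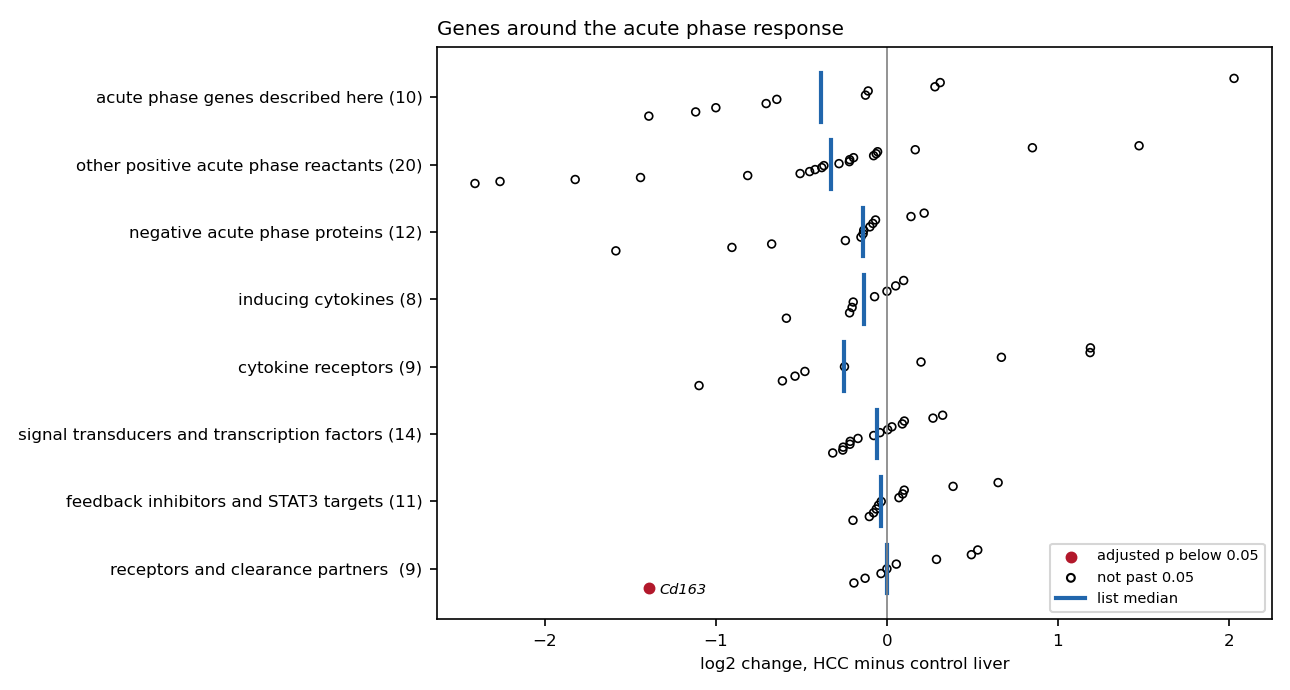
Log2 change, HCC minus control liver, of every measured gene in the acute phase set and in 7 lists around it, with the number of genes measured in brackets. The only gene past the threshold is Cd163, at -1.39, and the median of the acute phase set, -0.38, lies left of the medians of the 7 lists.

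Of the cytokines that induce the response, 8 were measured, and none passed or had an unadjusted p below 0.05 in limma (20.4% of all genes did). The interleukin 1 genes Il1a and Il1b, picked after their values were seen, spread the most in HCC, and Il1b also did in control liver. Il1a ran from 5.54 to 8.14 in HCC and from 7.17 to 7.72 in control liver, and Il1b from 6.47 to 7.82 and from 6.55 to 8.30. Il6 lay between 3.40 and 3.68 on the HCC arrays and between 3.51 and 3.65 on the control arrays (log2 change 0.00041, interval -0.17 to 0.17). Osm, the oncostatin M gene, had the smallest adjusted p of the list (5.96 ± 0.12 in HCC and 6.16 ± 0.13 in control liver, adjusted p = 0.247). Detection calls were not used here, so a low intensity does not show that a transcript was missing. Il6 lay near the low end of the intensities, and the same value, 3.62, recurred on several arrays. Its narrow interval therefore does not show that Il6 was unchanged.

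Among 9 receptors of these cytokines none passed, but 7 had an unadjusted p below 0.05, beside 20.4% of all genes. Lifr, the leukaemia inhibitory factor receptor, measured 10.56 ± 0.19 in HCC and 11.10 ± 0.24 in control liver (log2 change -0.54, SE 0.14, adjusted p = 0.0917). The other receptors given here were picked after their values were seen. The interleukin 6 receptor Il6ra measured 7.36 ± 0.40 in HCC and 7.97 ± 0.19 in control liver, and its groups did not overlap (adjusted p = 0.147). The shared subunit Il6st, which encodes gp130, measured 10.51 ± 0.34 and 10.99 ± 0.19 (adjusted p = 0.177). The oncostatin M receptor Osmr measured 7.62 ± 0.77 and 6.43 ± 0.27 (adjusted p = 0.129). The interleukin receptor subunit Il22ra1 measured 8.32 ± 0.83 and 7.13 ± 0.33 without overlap (adjusted p = 0.149).

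Of 14 measured signal transducers and transcription factors none passed, 3 had an unadjusted p below 0.05 (20.4% of all genes did), and the median change was -0.059. The Janus kinase Jak1, picked after its values were seen, ran from 9.54 to 10.78 in HCC and from 10.40 to 10.62 in control liver. Stat3 lay between 9.14 and 9.31 in HCC and between 9.28 and 9.83 in control liver, with control array 2 at the top (log2 change -0.17, adjusted p = 0.438). Tyk2, another Janus kinase, had the smallest adjusted p of the list (6.23 ± 0.09 and 6.44 ± 0.11, adjusted p = 0.172). Of 11 feedback inhibitors and STAT3 targets none passed, with a median of -0.033. Socs3, the feedback inhibitor of gp130 signalling, measured 6.77 ± 0.15 in HCC and 6.81 ± 0.09 in control liver (adjusted p = 0.865). Bcl3, an atypical inhibitor of NF-kB, measured 7.55 ± 0.15 and 7.16 ± 0.16 without overlap (log2 change 0.39, adjusted p = 0.102).

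Of 9 receptors and clearance partners, Cd163 fell and the other 8 did not pass. Cd163 is the macrophage receptor that takes up haptoglobin-haemoglobin complexes. It measured 5.78, 6.51, 5.52, 6.10 and 5.85 on the HCC arrays, against 7.24, 7.52, 7.57 and 7.05 on the control arrays. The groups did not overlap, and the log2 change was -1.39 (2.62-fold lower in HCC, SE 0.20, adjusted p = 0.0250 in limma). The call did not hold without HCC array 4 (adjusted p = 0.0628) or without control array 1, 2 or 3 (0.0976, 0.0885 and 0.105). It also did not hold without both arrays numbered 2 (-1.48, adjusted p = 0.0614), while the change in all 5 stayed between -1.48 and -1.32. On HCC array 2, where the summed macrophage and Kupffer cell markers were highest, Cd163 was the highest of the HCC arrays and below every control. Hp, the ligand, had its higher values in HCC, as given above, but did not pass (limma adjusted p = 0.117). The part of macrophage content in the Cd163 values, and any link between Cd163 and Hp, were not tested.

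The genes whose values moved most like each member, after group means were taken off and among genes above the median level, are given next. For each member the 3 highest Pearson correlations over the 9 arrays were taken, with coefficients from 0.912 to 0.992. Of the 30 genes so named, 0 were members and 0 were among the other positive reactants. They were drawn from 9969 genes, of which members and other reactants are a very small share. Counts of 0 therefore do not show that the members moved apart, and pairs of members reached 0.97. For Saa4 they were Gm4788, Ttpa and Dhrs3, and for Orm1 Ndufb6, Dnase1l3 and Prdx1. For Saa1 they were Syne4, Minpp1 and Foxa2, for Saa2 Xpot, Ttc17 and Tiparp, and for Saa3 Lmtk2, Cul4b and Smc5. For Orm2 they were Samd8, Lgr4 and Rps19-ps3, for Hp Serpinf2, Ufc1 and Rab4a, and for Hpx Blvra, Jam2 and Vps35l. For Lcn2 they were Idua, Tspan13 and Ifngr1, and for Apcs Anxa1, Hcls1 and C5ar1. Foxa2, a hepatocyte transcription factor, and Ifngr1, an interferon receptor subunit, are also in the lists of transcription factors and receptors above. With 9 arrays, 1 or 2 deviating arrays set such coefficients, and they are given as a description.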

How the data were processed

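Total RNA of 5 HCC and 4 control livers was hybridised to Affymetrix Mouse Gene 1.0 ST arrays, 1 per sample. The deposited values are RMA intensity per probe set on a linear scale, per the submitters' processing notes, and GenePattern and R were used per the labels of the series. No versions are given in the sources used here. That the scale is linear follows from their range, 3.91 to 21468. They were converted to log2 with no pseudocount. Of 35512 probe sets, 21789 had 1 gene symbol in the platform annotation, 1621 had several and 12102 had none. By Entrez ID, 21698 of those with 1 symbol matched RefSeq's GRCm38.p6 gene table, used for names and gene order. For 999 genes with several such probe sets, the one with the highest mean was kept (19938 genes).

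The comparison of HCC with control liver used limma 3.58.1 (R 4.3.3; lmFit, eBayes; group as the only term; two-sided; Benjamini-Hochberg over all genes; threshold 0.05). The labels do not tie arrays to single animals, so p-values cover only the spread among these arrays, whose number limits the precision. The 10 genes, the 15 lists and the alternatives were chosen with earlier results of these data known. Named genes were the members, up to 4 called genes per list by size of change (in a list with no call, the 1 with the smallest adjusted p), 8 defining genes and the 3 genes most correlated with each member; others are said to be picked later. Of the listed genes, those without a probe set of their own were not analysed here. Alternatives were a filter on low values, repeated quantile normalisation, array medians, trend and robust eBayes, array weights, averaged probe sets, every probe set, the replicate number as a block, the Xist level as a covariate and omitting arrays 1 at a time; omitting both arrays numbered 2 was added after seeing the data. Tested on simulated data for this comparison (19938 genes), the fit recovered 78 of 100 genes changed by a log2 of 1 and 99 of 100 changed by 2, with 9 false calls. The changed genes were drawn at random and the noise was independent between genes and arrays. These rates therefore do not carry over to members with a wide spread, such as Orm2 (SD 2.01 in HCC). Tables used Python 3.11.15 with pandas 2.3.3, and promoters were aligned with Biopython 1.88.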

Additional observations from a re-analysis of the deposited data

Results flagged for a closer look

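A value of an HCC or control array was marked when its gap to the nearest other array of its group was large for the group's range (Dixon's test at the 95% level). Of 66 groups of arrays tested, 7 were marked (10.6%), and chance marks about 1 in 20. For the acute phase genes these were 2 of 20 groups. Saa2 was 11.71 on control array 2, with the other controls at 9.30 to 9.67, and Saa4 was 9.06 on HCC array 1, with the other HCC arrays at 11.47 to 12.43. Stat3 was likewise highest on control array 2, at 9.83 against 9.28 to 9.33 on the other controls, and it was lowest on HCC array 5, at 9.14 against 9.29 to 9.31. Osm was lowest on HCC array 1 (5.74 against 5.99 to 6.03) and Il6 on HCC array 4 (3.40 against 3.62 to 3.68). Mmp8 was lowest on control array 1 (4.54 against 4.67 to 4.68), a gap that is small in absolute terms.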

How the results depend on the processing

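No acute phase gene passed under the 19 alternatives run, except that with the replicate block 1 did, Lcn2 (2.61, limma adjusted p = 0.0337), where 2.4% of all genes passed. HCC array 5 has no control of its number and so adds nothing to the change in that fit. The change of Lcn2 there equals the one without HCC array 5, the HCC array on which Lcn2 was lowest. The labels do not say whether the numbers in the titles pair the arrays. Same-numbered arrays had correlations of deviations of -0.0040, 0.32, -0.029 and -0.083, and arrays of unlike number reached at most 0.21. The value of 0.32 belongs to the arrays numbered 2, and a batch shared by same-numbered arrays was not tested. The sign kept for 8 members. Saa1 reversed with the Xist covariate (0.13), without both arrays numbered 2 (0.10) and without HCC array 4 or control array 2 (single arrays left out gave -0.57 to 0.55). Saa2 reversed likewise (0.18, 0.21), also without HCC array 3 (-0.37 to 0.44). Comparison genes near 0 also turned: Il6 with the block (-0.019) and without single arrays (-0.030 to 0.050), and Socs3 with array weights (0.033) and without single arrays (-0.091 to 0.0084). Over all genes, 171 were higher and 32 lower; with the filter on low values 285 and 93, with array weights 503 and 246, with the block 259 and 220, with array medians subtracted 108 and 11, without both arrays numbered 2 only 5 and 1, and with repeated quantile normalisation 50 lower. Without single arrays the counts ran from 10 to 631 higher and from 0 to 556 lower in limma. The causes were not tested. With the same arrays, the interval of Orm2 runs from -3.64 to 0.86 and that of Hp from 0.11 to 0.51. Their levels differ too, with a mean over all arrays of 9.71 for Orm2 and 13.35 for Hp. Compression of high signal was not tested.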

Other observations

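Markers of other cell types that a liver tumour sample can hold were read from the same limma fit. All 7 measured biliary and progenitor markers had a positive change. Of these, Cd24a, a surface glycoprotein, and Sox9, a transcription factor of bile ducts, passed. Cd24a measured 10.95 ± 0.99 in HCC and 8.02 ± 0.43 in control liver (adjusted p = 0.0347) and Sox9 9.496 ± 0.65 and 7.35 ± 0.14 (adjusted p = 0.0228). The call of Sox9 did not hold without any 1 of the 4 control arrays (adjusted p 0.0629 to 0.103), nor that of Cd24a without any of them or without HCC array 2 or 4 (0.0635 to 0.132). The list's summed intensity was 1829 to 8661 on the HCC arrays and 715 to 1088 on the control arrays, highest on HCC array 1. HCC array 1 was also the lowest of all arrays for Saa4, Orm1 and Orm2. Any link between these genes and the biliary and progenitor markers was not tested. None of 7 endothelial markers passed. Their sum was 1486 on HCC array 1 and 1797 to 3148 on the other HCC arrays, against 2621 to 3072 on the control arrays, and the growth factor receptor Kdr measured 7.74 ± 0.38 in HCC and 8.38 ± 0.12 in control liver (adjusted p = 0.113). None of 8 stellate cell and fibroblast markers passed, with Acta2, smooth muscle actin, at 7.14 ± 0.69 and 6.05 ± 0.40 (adjusted p = 0.139). None of 9 lymphocyte markers passed or had an unadjusted p below 0.05 (20.4% of all genes did). Cd4 measured 5.71 ± 0.15 in HCC and 5.88 ± 0.08 in control liver, and the list's median change was -0.13. None of 6 adipocyte markers passed. The fatty acid binding protein Fabp4, which endothelial cells and macrophages also express, measured 9.52 ± 0.62 and 8.53 ± 0.32 (adjusted p = 0.130), and Adipoq, picked after its values were seen, lay between 4.72 and 5.13 in HCC and between 5.03 and 5.82 in control liver.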
